A study of Mus musculus with 4 samples.

Results

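The insulin-like growth factor (IGF) axis was followed in mouse embryos labelled null for nucleoredoxin, a thioredoxin-related protein encoded by Nxn, with wild-type embryos beside them, at the stages E9.5 and E11.5 (embryonic days). Its members were the ligands Igf1 and Igf2, the receptors Igf1r and Igf2r, and the binding proteins Igfbp1 to Igfbp6. They were taken by the gene name in the array files, and every non-control probe that carried one of these 10 names was used. This gave 17 probes on 35 spots, out of 41174 probes on 43379 spots that carry 27672 gene or transcript names. The groups were NRX -/- (here Nxn-null) and NRX +/+ (wild-type) embryos, all C57BL/6J and untreated, at each of the 2 stages. Total RNA was amplified from an oligo-dT primer, and each of 4 dual-colour Agilent arrays compared the genotypes within a stage. On replicate 1 of a stage the Nxn-null RNA was in Cy5 and the wild-type RNA in Cy3, and on replicate 2 the dyes were exchanged. The labels name neither separate RNA extracts for the arrays of a stage nor the number of embryos behind an RNA, so p-values measure only the spread between these arrays, which may be technical. Where array titles shorten the Nxn-null sample they call it KD, while its genotype field reads NRX -/-.

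IGF1 and IGF2 are secreted growth factors that bind the tyrosine kinase receptor encoded by Igf1r, and this signal is a main drive of fetal growth. Igf2r, the mannose 6-phosphate receptor, takes IGF2 into lysosomes and lowers its supply. Igf2 is expressed from the paternal allele and Igf2r from the maternal allele in the mouse embryo. The binding proteins hold IGFs in body fluids and at the cell surface and can block or prolong their action. Igfbp1 is known as a liver and decidua product whose transcription falls with insulin and rises with fasting, and the fetal visceral endoderm shares much of its secretory programme with liver.

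Igfbp1 and Igfbp3 are neighbouring genes on mouse chromosome 11, and only Igfbp1 had a large genotype difference in these embryos, so both promoters are shown. RefSeq windows on GRCm38.p6 were available for all 10 members, 14 in all, each from 250 bases before to 50 after a gene start. The 250 bases before the start of each of these genes are printed 5′ to 3′ on the strand of the gene, the Igfbp1 sequence from chr11:7197537-7197786 on the plus strand and the Igfbp3 sequence from chr11:7213924-7214173 on the minus strand. Capitals in Igfbp1 mark the insulin response core CAAAACAA and the HNF1 half-site GTTAAT, read here on the other strand as ATTAAC. The Igfbp3 stretch is shown without capitals because it held neither.
Igfbp1: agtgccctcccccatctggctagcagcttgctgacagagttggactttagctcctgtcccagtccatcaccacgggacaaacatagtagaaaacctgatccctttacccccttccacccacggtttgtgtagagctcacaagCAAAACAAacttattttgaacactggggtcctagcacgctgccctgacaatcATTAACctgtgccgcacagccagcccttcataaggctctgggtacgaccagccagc
Igfbp3: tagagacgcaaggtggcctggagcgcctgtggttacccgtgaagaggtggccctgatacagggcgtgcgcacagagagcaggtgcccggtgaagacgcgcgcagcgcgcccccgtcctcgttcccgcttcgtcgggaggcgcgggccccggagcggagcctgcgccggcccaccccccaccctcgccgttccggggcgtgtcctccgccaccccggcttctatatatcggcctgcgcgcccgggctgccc
The insulin response core lay at bases -108 to -101 from the Igfbp1 start, and 2.51% of all 32851 promoter windows held it on either strand. The HNF1 half-site lay at bases -56 to -51, and 7.10% of all windows held it. The FoxO consensus GTAAACA was found in no member's window and in 3.65% of all windows. Only these exact letters were searched as a FoxO site, so their absence does not show that a window lacks one. A TATAAA element was found in the windows of Igfbp4 and Igfbp6 and in 13.6% of all windows. None of these motifs overlapped another in a member's window. The printed Igfbp1 stretch was 53.2% G and C and the Igfbp3 stretch 73.2%. These matches describe letters in a window, and no binding was measured. Their part in the expression results was not tested.

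Each ratio is the log2 of Nxn-null over wild-type intensity after background correction and loess normalization within an array, so that 0 is no difference and -1 is a halving. A probe was tested if it was well above background, by the scanner software's own mark, on both arrays of a stage in at least 1 genotype, which kept 24993 of 41174 probes. Of the 17 probes, 16 passed, and the 1 that did not was the only probe of Igfbp6. No member probe was marked saturated, a mark given here when most spots of a probe had it. The main test was limma's moderated test over the 4 arrays with a term for dye orientation, Benjamini-Hochberg adjusted over all 24993 probes, and "beyond array spread" means an adjusted p under 0.05. It had 1 residual degree of freedom, and nearly all of its error estimate (18.0 prior degrees of freedom) came from the other probes, so that the standard error lay near 0.064 for every member. That shared error is smaller than the difference between the dye-swapped arrays of several members, whose values are therefore given array by array.

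Both arrays of each stage had Nxn itself lower in the Nxn-null channel, at -0.81 and -0.99 for its 2 probes at E9.5 and at -1.16 and -1.33 at E11.5. These means leave 57.0% and 50.4% of the wild-type signal at E9.5, then 44.9% and 39.8%, so Nxn signal was reduced and not absent in the samples labelled NRX -/-. The labels do not say which part of the gene was altered or whether the probes lie in it, so these values do not check the label as a null, and Nxn-null is used here as the label's name. Across all tested probes the dye-swapped arrays correlated at 0.42 in the younger and 0.24 in the older embryos, and arrays of the same dye orientation at different stages correlated at 0.35 and 0.38, as a description with no test. Between 47.8% and 70.1% of probes were well above background in a channel. All 4 arrays were on 1 slide, so no slide batch separates the groups.

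**Figure D1:**
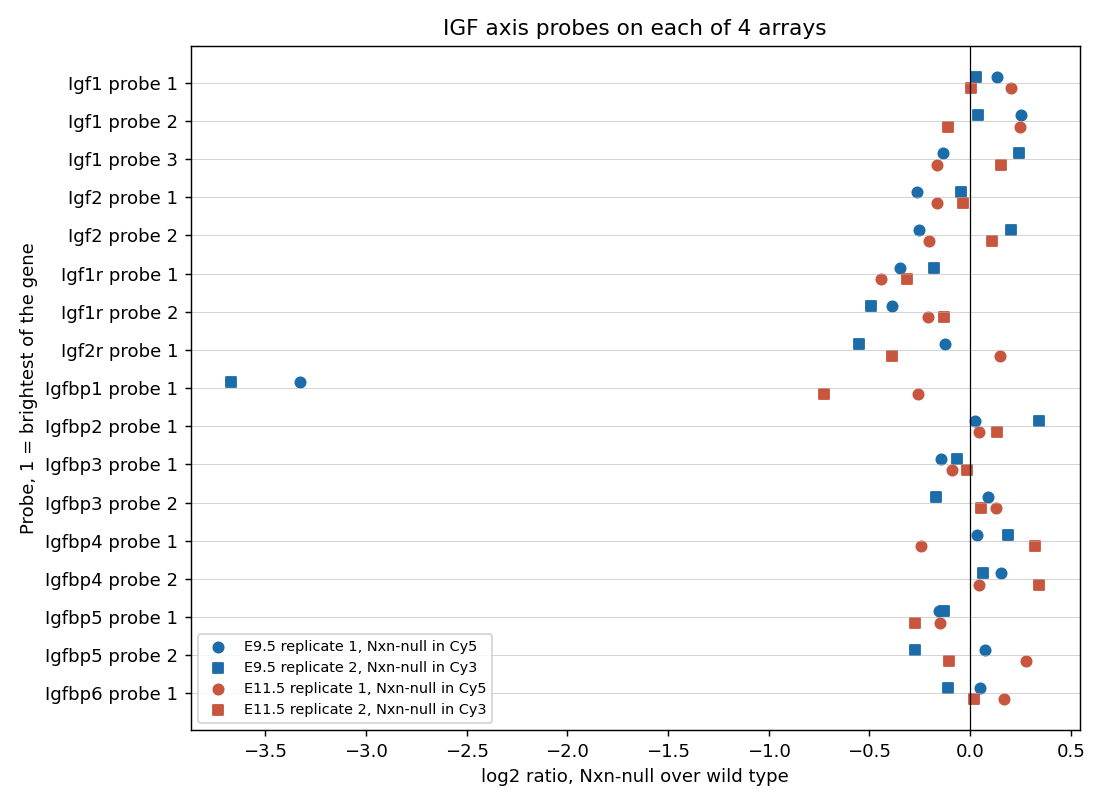
Log2 ratio of Nxn-null over wild type (x axis) for each of the 17 probes (y axis, probe 1 is the brightest of its gene) on each array, blue for E9.5 and red for E11.5, circles for Nxn-null in Cy5 and squares for Nxn-null in Cy3. The Igfbp1 probe lies at -3.33 and -3.67 at E9.5, while the values of all other probes lie between -0.55 and 0.34.

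At E9.5, 4 of the 16 tested probes were lower in Nxn-null embryos beyond array spread and 0 were higher. Across all tested probes 13.5% were lower and 8.8% higher. The 4 were the Igfbp1 probe, both Igf1r probes and the Igf2r probe. At E11.5, 3 probes were lower, against a background of 5.31%, and 0 were higher, against 3.16%. They were the Igfbp1 probe, the brighter Igf1r probe and the brighter Igfbp5 probe. The median ratio over the 16 probes was -0.07 for E9.5 and -0.03 for E11.5, against 0.00 and 0.01 over all tested probes. Without the dye term only Igfbp1 at E9.5 kept its call, which left 1 probe for E9.5 and 0 for E11.5. The same counts, 1 and 0, were found with median centring in place of loess and when any 1 array was left out.

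The ligands showed no genotype difference beyond array spread. Igf2 was the brightest member, and its main probe had normalized log2 intensities of 15.70 and 15.57 in wild-type and 15.52 and 15.44 in Nxn-null embryos at E9.5, in Cy3 and Cy5. At E11.5 the same probe read 16.42 and 16.32 in wild-type and 16.28 and 16.25 in Nxn-null embryos. Both wild-type readings were above both Nxn-null readings at each stage. With 2 readings per genotype, such a lack of overlap is a description and no test, here and for the members below. The ratio of this probe was -0.26 and -0.05 on replicates 1 and 2 of E9.5, then -0.17 and -0.04 on those of E11.5. It was below 0 on all 4 arrays, with means of -0.15 ± 0.15 (SD, n = 2 arrays; limma adjusted p = 0.0926) and -0.10 ± 0.09 (adjusted p = 0.430). The second Igf2 probe went in opposite directions with the dye, at -0.25 and 0.20 at E9.5 and at -0.21 and 0.11 at E11.5. With median centring in place of loess, the mean of the main probe at E11.5 was 0.13, so its sign there depends on the normalization.

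The main probe of Igf1 had log2 intensities of 9.92 and 9.99 in wild-type and 10.01 and 10.06 in Nxn-null embryos at E9.5, and 10.26 and 10.39 against 10.39 and 10.46 at E11.5. The genotypes did not overlap at E9.5 and met at E11.5. Its ratio was 0.13 and 0.03 at E9.5 (mean 0.08 ± 0.07, adjusted p = 0.415) and 0.20 and 0.00 at E11.5 (mean 0.10 ± 0.14, adjusted p = 0.425). The second probe of Igf1 gave 0.25 and 0.04 at E9.5, then 0.25 and -0.11 at E11.5, and the third, dim probe gave -0.13 and 0.24, and -0.17 and 0.15. No Igf1 probe was beyond array spread at either stage.

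The main probes of Igf1 and Igf2 were each printed 10 times on an array, which gives the technical error within a hybridisation. The SD of the ratio over the 10 spots of Igf1 lay between 0.021 and 0.046, and over those of Igf2 between 0.017 and 0.039. At E9.5 the 10 Igf2 spots ran from -0.30 to -0.23 on replicate 1 and from -0.08 to -0.02 on replicate 2, so the arrays did not overlap. At E11.5 the 10 Igf1 spots ran from 0.13 to 0.27 on replicate 1 and from -0.03 to 0.04 on replicate 2, again without overlap. In the other 2 cases the spots of both arrays met: at E9.5 those of Igf1 ran from 0.076 to 0.18 and from -0.03 to 0.085, and at E11.5 those of Igf2 from -0.23 to -0.109 and from -0.115 to 0.03.

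**Figure D2:**
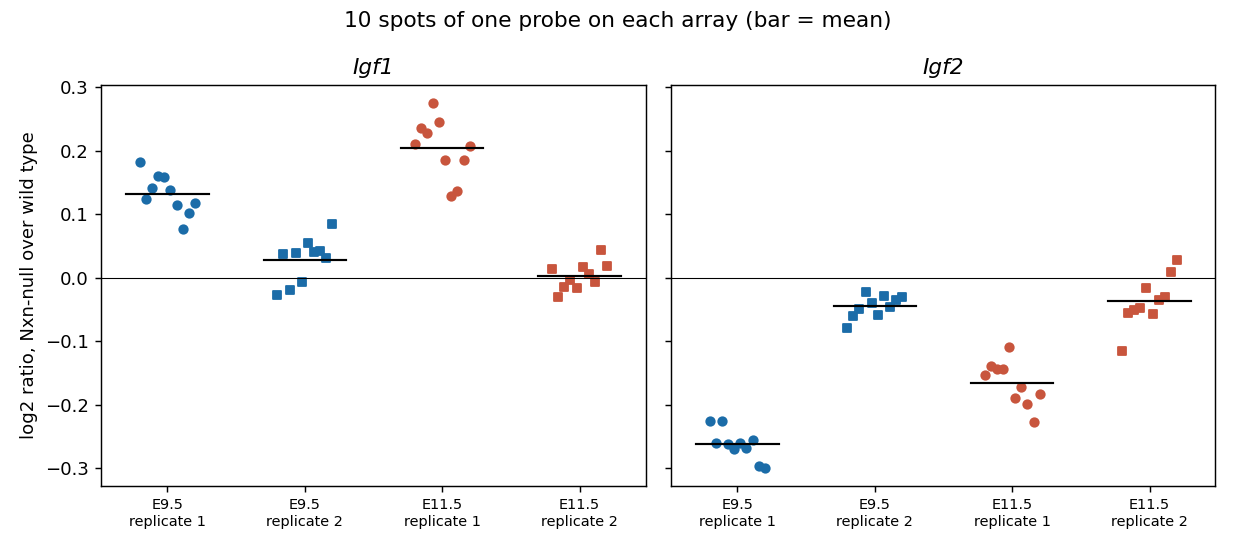
Log2 ratio of Nxn-null over wild type (y axis) for each of the 10 spots of the main Igf1 and Igf2 probes on each array (x axis), with bars at the mean. Spots of 1 array lie close together, with SDs of 0.017 to 0.046, while the dye-swapped arrays do not overlap for Igf2 at E9.5 and Igf1 at E11.5 and meet at their edges for Igf1 at E9.5 and Igf2 at E11.5.

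The receptors were both lower in Nxn-null embryos at E9.5. Igf1r, the signalling receptor, had log2 intensities of 10.10 and 9.93 in wild-type and 9.75 and 9.76 in Nxn-null embryos at E9.5, and of 10.45 and 10.44 against 10.13 and 10.01 at E11.5. Each wild-type reading was above each Nxn-null reading of its stage. The ratio was -0.35 and -0.18 at E9.5, a mean of -0.26 ± 0.12 (SD, n = 2 arrays; 83.4% of wild type; limma adjusted p = 0.00485). It was -0.44 and -0.31 at E11.5, a mean of -0.38 ± 0.09 (77.0% of wild type; adjusted p = 3.72e-04). Igf1r ranked 296th lowest of 17162 genes at E11.5 and 1541st lowest at E9.5.

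The second, dimmer Igf1r probe was also below 0 on all 4 arrays, at -0.39 and -0.49 at E9.5 (mean -0.44 ± 0.07, adjusted p = 3.80e-05) and at -0.21 and -0.13 at E11.5 (mean -0.17 ± 0.06, adjusted p = 0.136). Its accession is a cDNA clone rather than the reference transcript. A further pair of probes carried clone names, A330103N21Rik and D930020L01, that RefSeq now lists as older names of Igf1r. They were not members by the rule, and neither passed the test, with means of -0.06 and 0.02 at E9.5 and of -0.11 and 0.03 at E11.5. The 4 probes of this locus therefore disagreed in size. The calls of the brighter Igf1r probe were lost without the dye term (adjusted p = 0.324 for the younger stage, 0.391 for the older), with median centring, with the scanner software's own log ratio, and when any 1 array was left out.

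Igf2r, the clearance receptor, had ratios of -0.12 and -0.55 at E9.5, with a mean of -0.34 ± 0.30 (SD, n = 2 arrays; 79.1% of wild type; limma adjusted p = 5.58e-04). At E11.5 it had 0.15 and -0.39, with a mean of -0.12 ± 0.38 (adjusted p = 0.342), so the arrays differed in sign. Log2 intensities at E9.5 were 13.15 and 13.46 in wild-type and 12.91 and 13.02 in Nxn-null embryos, with no overlap, and the E11.5 readings of the genotypes overlapped, at 13.30 and 13.60 against 13.22 and 13.45. The E9.5 call had an adjusted p of 0.514 without the dye term and was also lost with median centring, with the scanner software's log ratio, and without any 1 array. The difference between the stages was 0.22 ± 0.09 (SE) and did not pass the test (adjusted p = 0.135).

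**Figure D3:**
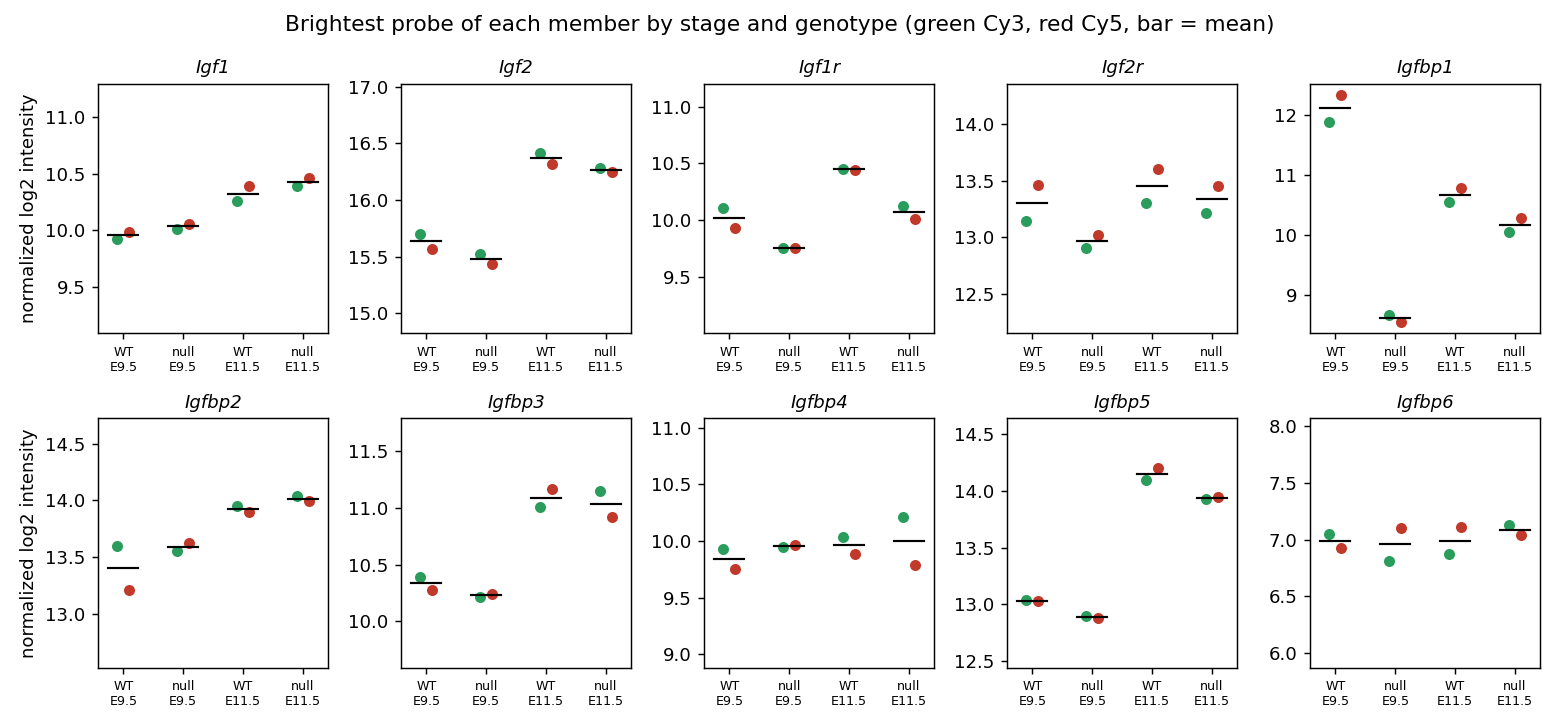
Normalized log2 intensity (y axis) of the brightest probe of each member in wild-type (WT) and Nxn-null embryos at E9.5 and E11.5, with green points for Cy3, red points for Cy5 and bars at the mean of both. Igfbp1 drops from 12.11 in wild-type to 8.61 in Nxn-null embryos at E9.5, Igf1r is lower in both Nxn-null groups, and Igf1, Igf2, Igfbp2, Igfbp3 and Igfbp5 are higher at E11.5 in both genotypes.

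Among the binding proteins, Igfbp1 stood far from the rest. Its mean spot signal at E9.5 was 2702 in wild-type (Cy3) against 586 in Nxn-null embryos (Cy5) on replicate 1, and 7183 (Cy5) against 274 (Cy3) on replicate 2, with a local background of 49 to 63. All 8 channels were well above background. Normalized log2 intensities were 11.89 and 12.34 in wild-type and 8.67 and 8.56 in Nxn-null embryos, so the genotypes lay far apart. The ratio was -3.33 and -3.67, a mean of -3.50 ± 0.24 (SD, n = 2 arrays), which is 11.3-fold lower, or 8.85% of wild type (limma adjusted p = 2.08e-18). It was the fourth lowest of 17162 genes at this stage. Igfbp1 was the only member at least 2-fold apart at E9.5, where 0.616% of all tested probes were 2-fold lower and 0.08% 2-fold higher.

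At E11.5 Igfbp1 was lower by much less. Its mean spot signal was 1034 in wild-type against 1524 in Nxn-null embryos on replicate 1 and 2437 against 672 on replicate 2, so that in these uncorrected signals the Cy5 channel was the higher on both arrays. After normalization the log2 intensities were 10.55 and 10.78 in wild-type and 10.06 and 10.29 in Nxn-null embryos. The ratio was -0.26 and -0.72, a mean of -0.49 ± 0.33 (71.1% of wild type; adjusted p = 1.92e-05). No member was 2-fold apart at this stage, where 0.156% of tested probes were 2-fold lower and 0.052% 2-fold higher. This call was lost without the dye term (adjusted p = 0.547), with median centring, with the scanner software's log ratio, and without any 1 array.

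The Igfbp1 ratio differed between the stages by 3.01 ± 0.09 (SE; limma adjusted p = 6.16e-15), and this difference passed the test under each of the 12 alternatives, at 2.77 to 3.41. It was the only member called in that direction, against 7.08% of all tested probes, and 0 members were called in the other, against 4.62%. The levels moved in opposite directions with age: from E9.5 to E11.5 Igfbp1 went down by 1.44 on the log2 scale in wild-type embryos (2.72-fold) and up by 1.56 in Nxn-null embryos (2.95-fold). The effect shared by both stages was -1.99 ± 0.76 (SE, n = 2 stages; adjusted p = 0.680).

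The genes most like Igfbp1 over the 4 arrays were named by the smallest root mean square distance of their log2 ratios, among 17161 other genes. Among the nearest were Apoc2, an apolipoprotein, at a distance of 0.30, the fetal serum protein Afp at 0.33, the secreted phosphoprotein Spp2 at 0.46, and the transcript CF584628, which has no gene name here, at 0.46. Apoc2 had -3.06 and -3.26 at E9.5, then -0.25 and -0.37 at E11.5. Afp had -3.11 and -3.64, then 0.02 and -0.17. These 4 were more than 8-fold lower at E9.5 on each array and between -0.37 and 0.05 at E11.5.

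Most yolk sac visceral endoderm markers were lower beside Igfbp1 at E9.5, and few were at E11.5. Of 20 listed genes, 19 were tested, and 18 were lower in Nxn-null embryos at E9.5, with a median ratio of -2.76, while 4 were lower at E11.5, with a median of -0.03. Their summed intensity at E9.5 was 19736 to 23921 in Nxn-null and 181405 to 183493 in wild-type channels, and at E11.5 it was 84842 to 86903 and 86008 to 93444. Of the 19, between 15 and 19 were well above background in an Nxn-null channel at E9.5. The endocytic receptor genes Cubn and Amn had -4.25 and -3.07 at E9.5, then -0.09 and 0.03 at E11.5. With age, all 19 were lower at E11.5 in wild-type embryos (median -1.37), and in Nxn-null embryos 10 were higher and 9 lower (median 0.29). Their part in the Igfbp1 result was not tested. In RNA of whole samples, fewer cells of a type, less RNA per cell and a difference in the tissue taken cannot be told apart.

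Some liver markers were lower too. Of 13 tested, 6 were lower at E9.5, among them Afp and Ttr, which are also on the yolk sac list, and Trf at -1.39. The median over the 13 was -0.10 at E9.5. At E11.5, 3 were lower and 1 was higher, with a median of -0.03 over the 13. The 3 were the serum protein genes Alb, Ahsg and Trf at -0.48, -0.86 and -0.36, of which Alb and Ahsg had 0.10 and -0.04 at E9.5, and the 1 was Serpina1b, a serum protease inhibitor gene, at 0.51. The liver list's summed intensity at E9.5 was 14542 to 18960 in Nxn-null and 116350 to 117806 in wild-type channels, and at E11.5 84847 to 87106 and 89482 to 96660. This sum is weighted to the brightest genes, and the liver list shares Afp, Ttr, Fgb and Hnf4a with the yolk sac list. Of 8 decidua and uterus genes, with Igfbp1 itself left out, 2 were higher and 3 lower at E9.5, and the decidual prolactin Prl8a2 was at 2.64. The summed intensity of these 8 was 9532 to 10452 in Nxn-null and 8728 to 11387 in wild-type channels, so the genotypes overlapped. All 9 heart muscle genes were also lower at E9.5 (median -1.58), and at E11.5, 0 were lower and 2 higher. Of 9 neuron genes, 8 were higher at E9.5 (median 0.40) and 0 were called at E11.5. Other lists were lower at both stages, beside the E11.5 calls of Igf1r, Igfbp1 and Igfbp5. Of 10 primitive red cell genes, 9 were lower at E9.5 (median -0.60) and 9 at E11.5 (median -0.89), and their summed intensity at E11.5 was 255430 to 341594 in Nxn-null and 671126 to 729397 in wild-type channels. Of 9 mesenchyme and matrix genes, 5 were lower and 1 higher at E9.5 (median -0.19), and 5 were lower at E11.5 (median -0.24), where their summed intensity was 100170 to 112547 against 123698 to 135594. Of 6 trophoblast and placenta genes, 2 were higher and 2 lower at E9.5 and 0 were called at E11.5. The part of these lists in the results on the IGF axis was not tested.

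**Figure D4:**
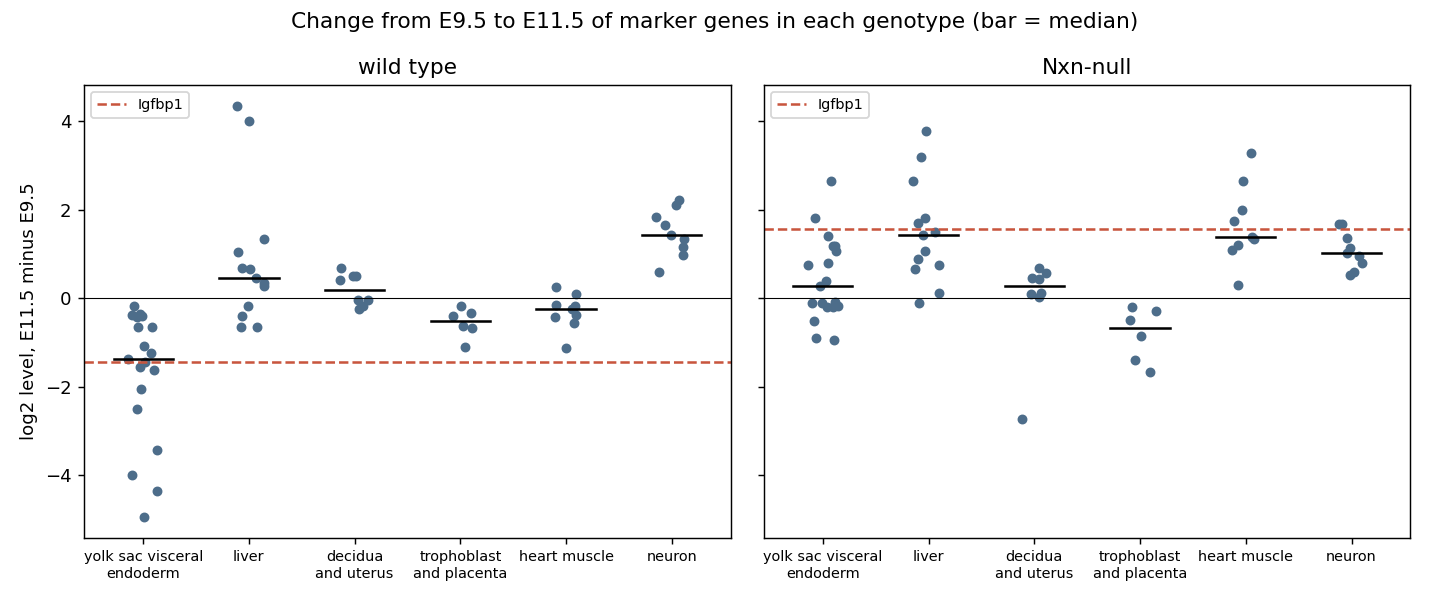
Log2 level at E11.5 minus E9.5 (y axis) for the tested genes of 6 marker lists (x axis) in wild-type and Nxn-null embryos, 1 point per gene with bars at the median and a dashed line at Igfbp1. In wild-type embryos Igfbp1 lies at -1.44 beside the yolk sac median of -1.37. In Nxn-null embryos it lies at 1.56, away from the yolk sac median of 0.29. The liver and heart muscle medians are 1.43 and 1.38 in Nxn-null embryos, and 0.47 and -0.24 in wild-type embryos.

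The other binding proteins differed little between genotypes. Igfbp2, a main carrier of IGFs in the fetus, had ratios of 0.02 and 0.34 at E9.5 (mean 0.18 ± 0.23, SD, n = 2 arrays; limma adjusted p = 0.0532) and 0.04 and 0.14 at E11.5 (mean 0.09 ± 0.07, adjusted p = 0.522). It was above 0 on all 4 arrays, and the genotypes overlapped at E9.5, at 13.60 and 13.21 in wild-type against 13.55 and 13.62 in Nxn-null embryos. Its E9.5 value passed the threshold in a fit of only the probes above background in every channel and in a fit of 1 probe per gene.

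Igfbp5, which binds extracellular matrix, had log2 intensities of 13.04 and 13.03 in wild-type and 12.90 and 12.88 in Nxn-null embryos at E9.5, and of 14.10 and 14.20 against 13.93 and 13.95 at E11.5. The genotypes did not overlap at either stage. The ratios were -0.16 and -0.13 at E9.5, a mean of -0.14 ± 0.02 (adjusted p = 0.123), then -0.15 and -0.27 at E11.5 with a mean of -0.21 ± 0.09 (adjusted p = 0.0468). The E11.5 call was lost in 10 of 13 alternatives, and the mean was -0.02 with median centring. The dim second probe of Igfbp5 had 0.07 and -0.28, then 0.28 and -0.11.

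Igfbp3, the main carrier of IGFs in adult serum, had -0.15 and -0.06 at E9.5, then -0.09 and -0.02 at E11.5, with its brighter probe, below 0 on all 4 arrays and not beyond array spread (adjusted p = 0.264 and 0.727). With median centring its E11.5 mean was 0.08. The dim second probe of Igfbp3 had 0.09 and -0.17 at E9.5, then 0.13 and 0.05 at E11.5, and was not called. What set Igfbp3 apart from its neighbour Igfbp1 was not tested. Igfbp4, which inhibits IGF action until it is cut by the protease encoded by Pappa, had 0.04 and 0.19 at E9.5, then -0.24 and 0.32 at E11.5 (adjusted p = 0.286 and 0.836), and its second probe had 0.16 and 0.06, then 0.04 and 0.34. Igfbp6, which prefers IGF2, had a spot signal of 87.2 to 111 over a local background of 53 to 63 and was well above background in 2 of 8 channels. No fold is given for Igfbp6.

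**Figure D5:**
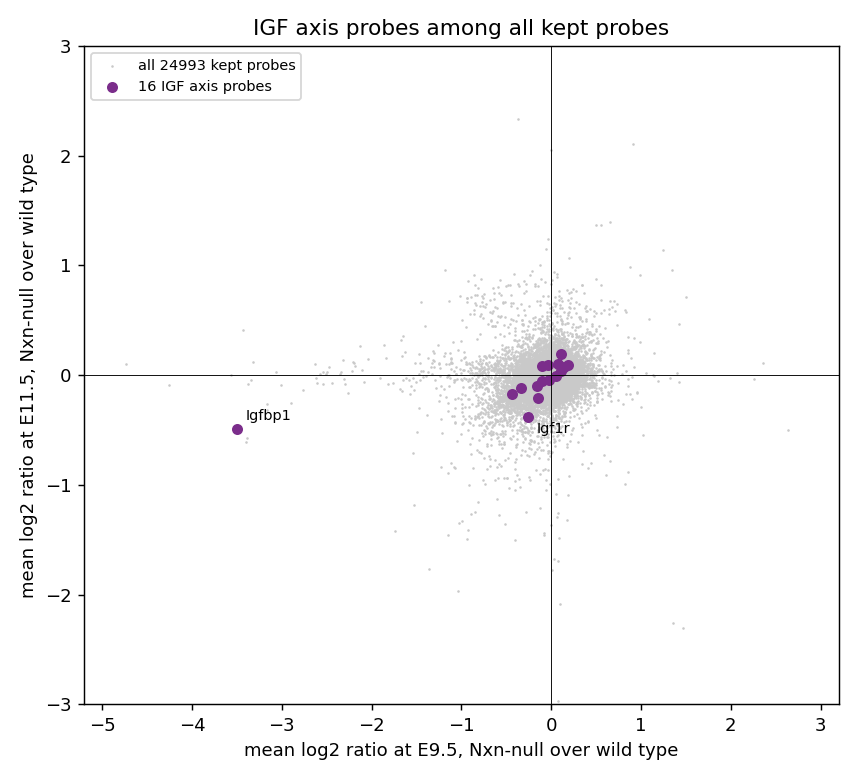
Mean log2 ratio of Nxn-null over wild type at E9.5 (x axis) and E11.5 (y axis) for all 24993 tested probes (grey) and the 16 tested probes of the IGF axis (purple), with 3 probes outside the axes. Igfbp1 lies at -3.50 and -0.49, Igf1r at -0.26 and -0.38, and the other IGF axis probes lie within 0.45 of 0 on both axes.

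Looked at over all 4 arrays, 6 of the 16 probes were lower in Nxn-null embryos on every array, against 10.6% of all tested probes, and 3 were higher on every array, against 7.67%. The 6 were the brighter probes of Igf2, Igfbp3 and Igfbp5, both Igf1r probes and the Igfbp1 probe. The 3 were the main Igf1 probe, at only 0.002 on E11.5 replicate 2, the Igfbp2 probe and the dimmer Igfbp4 probe. The other probes of Igf1, Igf2, Igfbp3, Igfbp4 and Igfbp5 changed sign between arrays. The effect shared by both stages was fitted on the 2 stage averages with limma. It was beyond spread for 0 of 16 member probes and 0 of 24993 probes (0%), where the lowest adjusted p was 0.342. At an unadjusted p under 0.05 it held 4 of 16 member probes, against 7.53% of all tested probes. They were both Igf1r probes, the Igf2r probe and the brighter Igfbp5 probe.

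Apart from Igfbp1, the largest changes of the axis were in the stage comparison. From E9.5 to E11.5, with both genotypes as replicates, 10 of 16 probes rose beyond spread and 0 fell. The background was 19.9% that rose and 22.3% that fell. Both genotype values come from channels of the same arrays, so their spread is that of the genotype ratio between stages. Differences between arrays that both channels share do not enter these SEs and p-values. All 16 estimates were above 0, and their median was 0.38 on the log2 scale, against -0.03 over all tested probes. The brightest probes of 6 genes rose when 1 probe was fitted per gene.

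Igfbp5 rose most, by 1.08 ± 0.06 (SE, n = 2 genotypes; 2.12-fold; limma adjusted p = 0.00527), and it was the only member past 2-fold, where 2.29% of tested probes were 2-fold higher. It rose by 1.12 in wild-type and 1.05 in Nxn-null embryos. Igfbp3 rose by 0.78 ± 0.06 (1.71-fold, adjusted p = 0.00590). Its dim second probe had 0.12 and did not pass the test. Igf2 rose by 0.76 ± 0.06 with the main probe and by 0.96 ± 0.06 with the second (1.69-fold and 1.95-fold; adjusted p = 0.00600 and 0.00527). H19, the noncoding RNA of the same imprinted locus, rose by 1.003 (adjusted p = 0.00527).

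Igfbp2 rose by 0.47 ± 0.06 (1.39-fold, adjusted p = 0.0115). Igf1 rose by 0.38 ± 0.06 with its main probe (1.30-fold, adjusted p = 0.0149), and its other probes by 0.45 and 0.26. Igf1r rose by 0.37 ± 0.07 with the brighter probe (1.29-fold, adjusted p = 0.0194), while its second probe had 0.05 (adjusted p = 0.666). Igf2r had 0.26 ± 0.08 (adjusted p = 0.0678) and Igfbp4 had 0.08 ± 0.06 (adjusted p = 0.334), and neither passed the test. Igfbp1 had a shared value of 0.06 ± 0.76, with the genotypes moving in opposite directions as given above. The scale of single channels across arrays depends on the normalization, and with processed signals scaled to the 75th percentile 7 probes rose, and Igf1r and Igfbp2 lost their calls (adjusted p = 0.0595 and 0.132). Without E11.5 replicate 2, Igf1r also lost its call (adjusted p = 0.0579), and Igf2r gained one without E9.5 replicate 2 or E11.5 replicate 1 (adjusted p = 0.0276 and 0.0323).

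Other genes of the pathway were read from 8 lists with 98 genes, of which 85 were tested with their brightest probe. At E9.5, 8 were higher and 6 lower beyond array spread, and at E11.5, 1 was higher and 3 were lower. Both shares lie below the background of 22.3% called in either direction at E9.5 and 8.48% at E11.5. Their median ratio was 0.02 for E9.5 and -0.02 for E11.5. With the stage, 29 rose and 19 fell, against 19.9% and 22.3% of all tested probes, so the share that fell lay near the background. Over all tested probes 8.8% were higher and 13.5% lower at E9.5, and a count of 1 or 2 genes in a short list is to be read against these shares. Without the dye term 1 gene remained called at E9.5 and 0 at E11.5.

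Among the receptors and hormones near the axis, Insr, the insulin receptor, had -0.44 and 0.08 at E9.5 (mean -0.18, adjusted p = 0.0545) and -0.69 and 0.03 at E11.5 (mean -0.33, adjusted p = 0.00192). The arrays of each stage differed in sign, so its E11.5 call rests on the dye term. Ghr, the growth hormone receptor, had -0.33 and -0.30 at E9.5 (mean -0.32 ± 0.03, SD; adjusted p = 0.00102) and -0.08 and -0.17 at E11.5, and its 5 probes were all below 0 at E9.5, from -0.51 to -0.21. Stat5b, a signal transducer below that receptor, was lower at E9.5 (-0.20, adjusted p = 0.0385), with arrays of opposite sign, at 0.11 and -0.51.

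Of 7 tested IGFBP-related proteins and proteases, 2 were higher and 0 lower at E9.5, and 0 were called at E11.5. Htra1, a secreted serine protease that can cut IGFBP5, had 0.79 and 0.50 at E9.5 (mean 0.64, 1.56-fold; adjusted p = 2.05e-07) and 0.06 and -0.22 at E11.5, a difference between stages of -0.73 (adjusted p = 7.65e-06). The matricellular protein gene Ccn2 was at 0.22 at E9.5 (adjusted p = 0.0165). Igfbp7 and Igfbpl1, which share the IGFBP fold at their N terminus, had 0.06 and 0.16 at E9.5 and were not called, and they rose with the stage by 1.51 and 1.32. Pappa2, a protease of IGFBP5, was not tested because its probe was dim.

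The Igf2 mRNA-binding proteins Igf2bp1 and Igf2bp3 were higher at E9.5, at 0.26 and 0.19 (adjusted p = 0.00479 and 0.0370), and the Igf2bp3 arrays had opposite signs, at -0.07 and 0.45. Another probe of Igf2bp1 had -0.05. At E11.5 they had 0.06 and -0.04. Both fell with the stage by 0.55 and 0.62 on the log2 scale, while Igf2 itself rose. Igf2bp2 had -0.05 and 0.11, and fell with the stage by 0.38. Lin28a, an RNA-binding repressor of let-7, was at 0.34 at E11.5 (adjusted p = 0.00924) and fell with the stage by 2.96. With the scanner software's log ratio its E11.5 value was 1.09 and the call was lost (adjusted p = 0.136), as it was without the dye term (adjusted p = 0.861). H19 had -0.04, then -0.07, and was not called.

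Among receptor substrates and adaptors, 2 of 16 were lower at E9.5, a share near the 13.5% of all tested probes, and 0 were higher. They were Grb7 at -0.50 (adjusted p = 5.35e-06) and Grb14 at -0.36 (adjusted p = 3.61e-04), which at E11.5 had -0.03 and 0.08. Both belong to the same adaptor family as the imprinted growth inhibitor Grb10, whose brightest probe had 0.07 and -0.12 and was not called, though another of its probes had -0.71 and -0.28. Irs1, a docking protein of the receptor, had 0.07 and -0.05, and Irs2 was not tested. In the PI3K-Akt-mTOR list, 1 of 23 was higher at E9.5, Akt2 at 0.24 (adjusted p = 0.0122), with its other probe at 0.01, and 0 were lower. In the MAPK list, 2 of 10 were higher at E9.5, among them the small GTPase Hras at 0.25 (adjusted p = 0.00795), and 0 were lower.

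Of 11 tested FoxO factors and targets, 1 was higher and 2 lower at E9.5, and 2 were lower at E11.5. Trib3, a pseudokinase that binds Akt, was lower on each array, at -1.31 and -0.93 at E9.5 (mean -1.12, 2.17-fold; adjusted p = 6.12e-11) and at -1.0004 and -0.60 at E11.5 (mean -0.80, adjusted p = 2.69e-08). Its second probe had -0.39 and -0.34. Cdkn1b, an inhibitor of cyclin-dependent kinases, was at 0.66 at E9.5 (adjusted p = 1.38e-07), with its other probe at 0.06, and Klf15 was at -0.27 (adjusted p = 0.00693), with its other probe at 0.04. Ccng2, an atypical cyclin, was at -0.25 at E11.5 (adjusted p = 0.0218). Foxo3 and Pck1 were too dim to test. Without the dye term, Trib3 at E9.5 kept its call among these genes.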

How the data were processed

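The authors deposited 1 scanner file per array, which holds, per the file headers, mean spot intensity and local background in each channel on a linear scale, a processed intensity after Agilent Feature Extraction's own background and dye correction, a log10 ratio of red over green, and marks for background, saturation and outliers. Feature Extraction is given as 9.5.3.1 in the submitters' processing notes and as 9.1.3.1 in the headers. The deposited values of the series are on the log10 scale and not centred further: 99.995% to 100% of them for 40929 probes were equal within 0.0001 to the log10 of the processed signals as Nxn-null over wild type, with column medians of -0.0136, 0.0408, -0.0347 and 0.0210.

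From the deposited intensities, log2 ratios were computed here with normexp (offset 50) and loess within each array in limma 3.58.1 under R 4.3.3 (with the data.table package, 1.17.8), with control spots at weight 0. Spots of a probe were averaged, and 293 probes with outlier marks on every spot were left out. Levels are single-channel log2 intensities after Aquantile. The 4-array fit holds both stages and dye orientation, the stage effect takes the 2 genotypes as replicates (3.0 prior degrees of freedom), and p-values were Benjamini-Hochberg adjusted over all 24993 tested probes. Depth is not defined for arrays, and their number limits the precision. Figures used matplotlib 3.10.9 and pandas 2.3.3 under Python 3.11.15. Gene names are those of the array design, updated through RefSeq (GRCm38.p6) by accession for 22951 probes, by current symbol for 6659 and by older symbol for 3109.

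The members, the pathway and marker lists and the tests were chosen with earlier results of these data known. Named genes were all members, 12 fixed pathway genes, up to 3 called genes per list with the largest ratio, and the 5 genes nearest to the member with the largest ratio. Ccng2, the probes under older names of Igf1r, Foxo3 and Pck1 were named after their values were seen. Some genes that these rules name are not reported here.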

Additional observations from a re-analysis of the deposited data

Results flagged for a closer look

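The Igfbp1 ratio of Nxn-null over wild type differed between E9.5 and E11.5 by 3.01 on the log2 scale in a test of the difference itself (SE 0.09, limma adjusted p = 6.16e-15). The ratio was below 0 on all 4 arrays. Of the members, Igfbp1 was the only one with such a difference, and 11.7% of all tested probes had one in either direction.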

How the results depend on the processing

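Igfbp1 at E9.5 and its difference between the stages kept direction and call under all 12 alternatives, at -3.97 to -3.33 and 2.77 to 3.41. The count of member probes called at E9.5 was 4 and became 1 with median centring, 2 with the scanner software's log ratio, 1 without the dye term and 1 to 1 when each array was left out in turn. At E11.5 it was 3 and became 0 with median centring, with the scanner software's log ratio, without the dye term and when each array was left out (0 to 0). Fits without an array also lose the dye term, and a lone array of a stage is assumed to vary like the others. The stage count of 10 probes became 6 with 1 probe per gene, by construction, since 9 genes were then tested. Pathway genes called at E9.5 were 14, and 1 without the dye term and 4 with the scanner software's log ratio, and at E11.5 they were 4, and 0 with either. The cause of the other losses was not tested.

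The values that changed sign were all of uncalled results. With median centring they were, at E11.5, Igf2 at 0.132, Igf2r at 0.0559 and Igfbp3 at 0.0757, for the shared effect Igf2 at 0.0177 and Igfbp3 at 0.0224, and for the difference between stages Igfbp2 at 0.0246 and Igfbp5 at 0.0563. With the scanner software's log ratio they were the difference for Igf1 at -0.00477, and at E11.5 Klf15 at -0.0417 and Akt2 at 0.0155. Leaving out each array in turn gave, at E11.5, -0.387 to 0.151 for Igf2r and -0.244 to 0.323 for Igfbp4, and for the shared effect of Igfbp4 -0.0655 to 0.218. For the difference between stages it gave -0.0768 to 0.124 for Igf1, -0.0567 to 0.161 for Igf2, -0.0486 to 0.489 for Igf2r, -0.252 to 0.0669 for Igfbp2 and -0.357 to 0.210 for Igfbp4. The stage effect of Igfbp1 ran from -0.0807 to 0.198. Median centring moved the median ratio of all tested probes from 0.00 to 0.05 at E9.5 and from 0.01 to 0.08 at E11.5.

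No paired analysis was possible because the replicate numbers only name the arrays in accession order and the labels pair no array of one stage with one of the other, while each ratio already compares both genotypes on 1 array. Signal close to background limits Igfbp6 and the second probes of Igfbp3, Igfbp5 and Igf1r.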
